A study of Homo sapiens with 3 samples.

Results

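The genes that license replication origins, unwind DNA and copy it were examined in LNCaP prostate cancer cells after transfection with siRNAs named for HOXD-AS1, a long non-coding RNA. The group was given as a list of 51 gene symbols, from the origin recognition complex to the fork protection factors. All 51 had at least 1 probe set annotated to that gene alone, out of 18131 genes with such a probe set on the array, and together they had 138 probe sets. LNCaP is an androgen-responsive cell line established from human prostate cancer. It was grown in phenol red-free RPMI-1640 with serum and transfected by lipid carrier with 75 nM of siRNA, and RNA was taken after 48 h. The control group received the negative control siRNA, and the other groups received si-HOXD-AS1-1 or si-HOXD-AS1-2, called siRNA 1 and siRNA 2 here. The labels record an inhibition rate relative to the control siRNA of 1 for the control, 0.23 for siRNA 1 and 0.25 for siRNA 2, without saying whether this is a remaining level or from which transcript or assay it was read. They also place the siRNA target sites on the WDR5 coding sequence although the siRNAs are named for HOXD-AS1, so the transcript targeted cannot be told from the labels. Each group held 1 array, so no difference below has a replicate check and no test between groups was possible. The source labels named the cells LNCaP for the control, LNCaP-Bic for siRNA 1 and LNCaP-AI for siRNA 2, while the cell line label was LNCaP throughout. A difference between cells of these names and a difference between siRNAs cannot be told apart.

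Replication begins with licensing. The origin recognition complex binds DNA and, with CDC6 and CDT1, loads the MCM2-7 ring, which stays inactive until the CDC7 kinase with its activator DBF4, cyclin-dependent kinases and the firing factors recruit CDC45 and the GINS complex. The activated helicase unwinds the fork, polymerase alpha-primase lays primers, polymerases epsilon and delta extend the leading and lagging strands, and replication factor C loads the sliding clamp PCNA. Many of these genes are transcribed from late G1 into S phase under E2F transcription factors, so their mRNA is low in resting cells and high in cycling cells.

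Values are probe set intensities on a linear scale. Intensities under 26.0, the median of all values on the 3 arrays, were raised to that floor, and genes above the floor on 1 array or more are called measured. Each gene is represented by its brightest probe set, and differences are on the log2 scale, where -1 is 2-fold lower. The arrays had median intensities of 25.7 to 26.1. Luminal prostate markers were present on every array, with 8 of 8 measured, and 0 of 5 leukocyte markers were measured. Of 8 markers of androgen receptor-negative prostate lines 2 were measured, with summed intensities over the list of 754 to 937, and of 7 stromal markers 3 were measured, summing to 132 on the control array, 189 on the siRNA 1 array and 279 on the siRNA 2 array. In that order, VIM of the first list read 660.1, 593 and 735, and S100A4 72.4, 87.9 and 137. Of the stromal genes COL1A1 read 34, 26.6 and 33.6, COL3A1 17.9, 28.4 and 50.4, and ACTA2 41.7, 92.9 and 150.0. The ratio of the 3' to the 5' ACTB probe set is higher where RNA or cDNA is shorter. It was 17.7, 22.8 and 24 on the control, siRNA 1 and siRNA 2 arrays, and that of GAPDH was 1.8, 1.85 and 2.03. The hybridisation controls, which are added in equal amounts, were higher than in the control by a median of 0.14 with siRNA 1 and 0.09 with siRNA 2. The poly-A spike controls, which are added to the RNA before labelling, were higher by a median of 0.34 (0.09 to 0.63 over 13 probe sets) with siRNA 1 and 0.14 (-0.28 to 0.38) with siRNA 2. Scaling on the hybridisation controls is given below as an alternative, and the part of the poly-A values in the differences was not tested. The level of HOXD-AS1 itself was not analysed here, for want of a probe set annotated to it among those used.

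Intensities of the replication genes were mostly below the control in both siRNA libraries, and by more with siRNA 1. Of the 51 genes 50 were measured, and the exception was MCM5, whose only probe set read 15.9, 13.3 and 15.6. With siRNA 1, 48 of the 50 were lower than the control, against 48% of all 11286 measured genes, and 18 were at least 2-fold lower, against 1.76%. These 18 were CDC6, MCM2, MCM4, MCM6, MCM7, CDC45, GINS2, GINS3, GINS4, DBF4, MCM10, PRIM1, POLE2, POLE3, PCNA, RFC3, RFC4 and FEN1. With siRNA 2, 44 of 50 were lower (background 46.9%) and 0 were at least 2-fold lower (background 0.603%), although 7 were at least 1.5-fold lower (background 4.67%), namely GINS3, DBF4, PRIM1, MCM10, RFC4, RFC3 and RFC2, beside 36 with siRNA 1 (background 6.16%). Of the 50 genes 0 were at least 2-fold higher with siRNA 1 (background 1.36%) and 0 with siRNA 2 (background 0.789%). The median difference was -0.85 with siRNA 1 and -0.36 with siRNA 2, where the median of all measured genes was 0.00 and 0.01. In bulk RNA, less mRNA in each cell and fewer cells that hold the mRNA cannot be told apart.

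**Figure D1:**
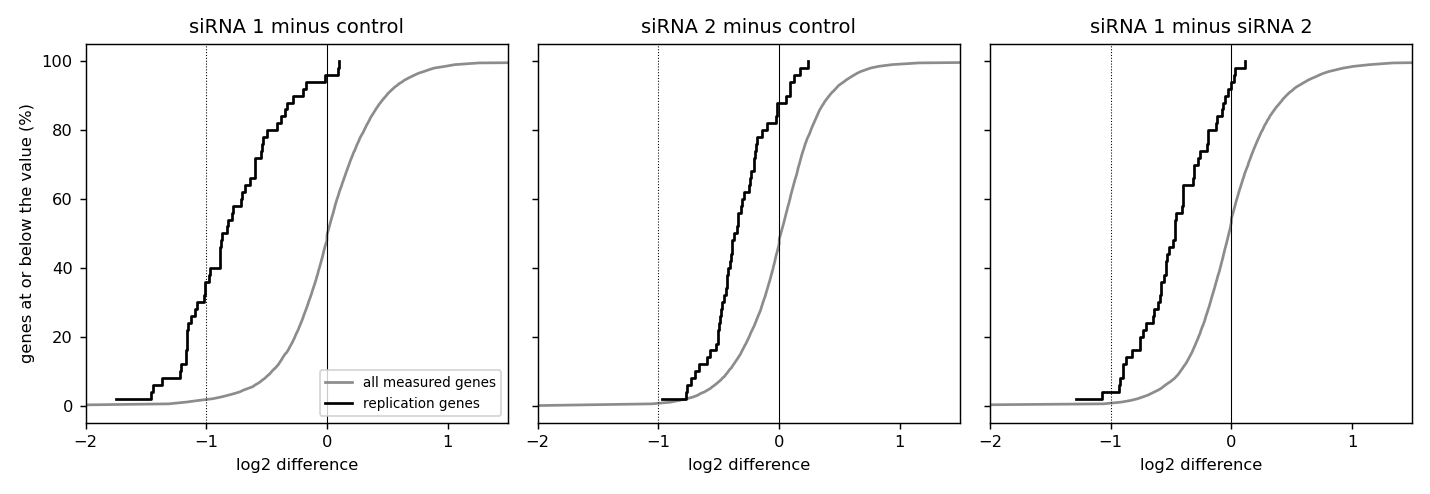
Cumulative distribution of the log2 difference for the 50 measured replication genes (black) and all 11286 measured genes (grey), for each siRNA against the control and for siRNA 1 against siRNA 2; the x axis is the log2 difference and the y axis the percentage of genes at or below it. The black curves lie to the left of the grey ones in all 3 panels, with medians of -0.85, -0.36 and -0.47, and the dotted line marks a 2-fold lower value.

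Lower values in both siRNA libraries were found for 43 of the 50 genes, against 32.1% of all measured genes, and higher values in both for 1 gene, ORC4, against 34.3%. Both differences share the control array, so an unusual value on that array enters both. The difference between the siRNA libraries does not use the control. There, 46 of 50 genes were lower with siRNA 1 than with siRNA 2 (background 53.1%), with a median of -0.47 against -0.02 for all measured genes. At least 1.5-fold lower with siRNA 1 than with siRNA 2 were 16 genes (background 4.87%), and POLE2 and CDC45 were at least 2-fold lower (background 0.656%). For CDC45 another probe set of similar intensity gave -0.87 and did not reach that threshold.

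The only estimate of measurement error within an array is the agreement between probe sets of a gene. Of the 138 probe sets 114 were measured, and 104 of these were lower with both siRNAs, against 33.7% of the 23896 measured probe sets with 1 gene. For siRNA 1, 46 of the 114 were at least 2-fold lower (background 1.5%), and for siRNA 2, 6 were (background 0.644%). Those 6 belonged to DBF4 (3 probe sets), MCM4, MCM7 and MCM10, in each case to a dimmer probe set than the one that stands for the gene. Among the 30 replication genes with several measured probe sets, all probe sets were lower with siRNA 1 in 29 and with siRNA 2 in 24. The same share over all genes was not counted. The standard deviation between probe sets of a gene, pooled over these 30 genes, was 0.25 for the siRNA 1 difference and 0.17 for the siRNA 2 difference. Pooled over all 6263 genes with several measured probe sets it was 0.22 and 0.2. Probe sets of a gene share the RNA and the array, so this spread leaves out the variation between cultures.

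**Figure D2:**
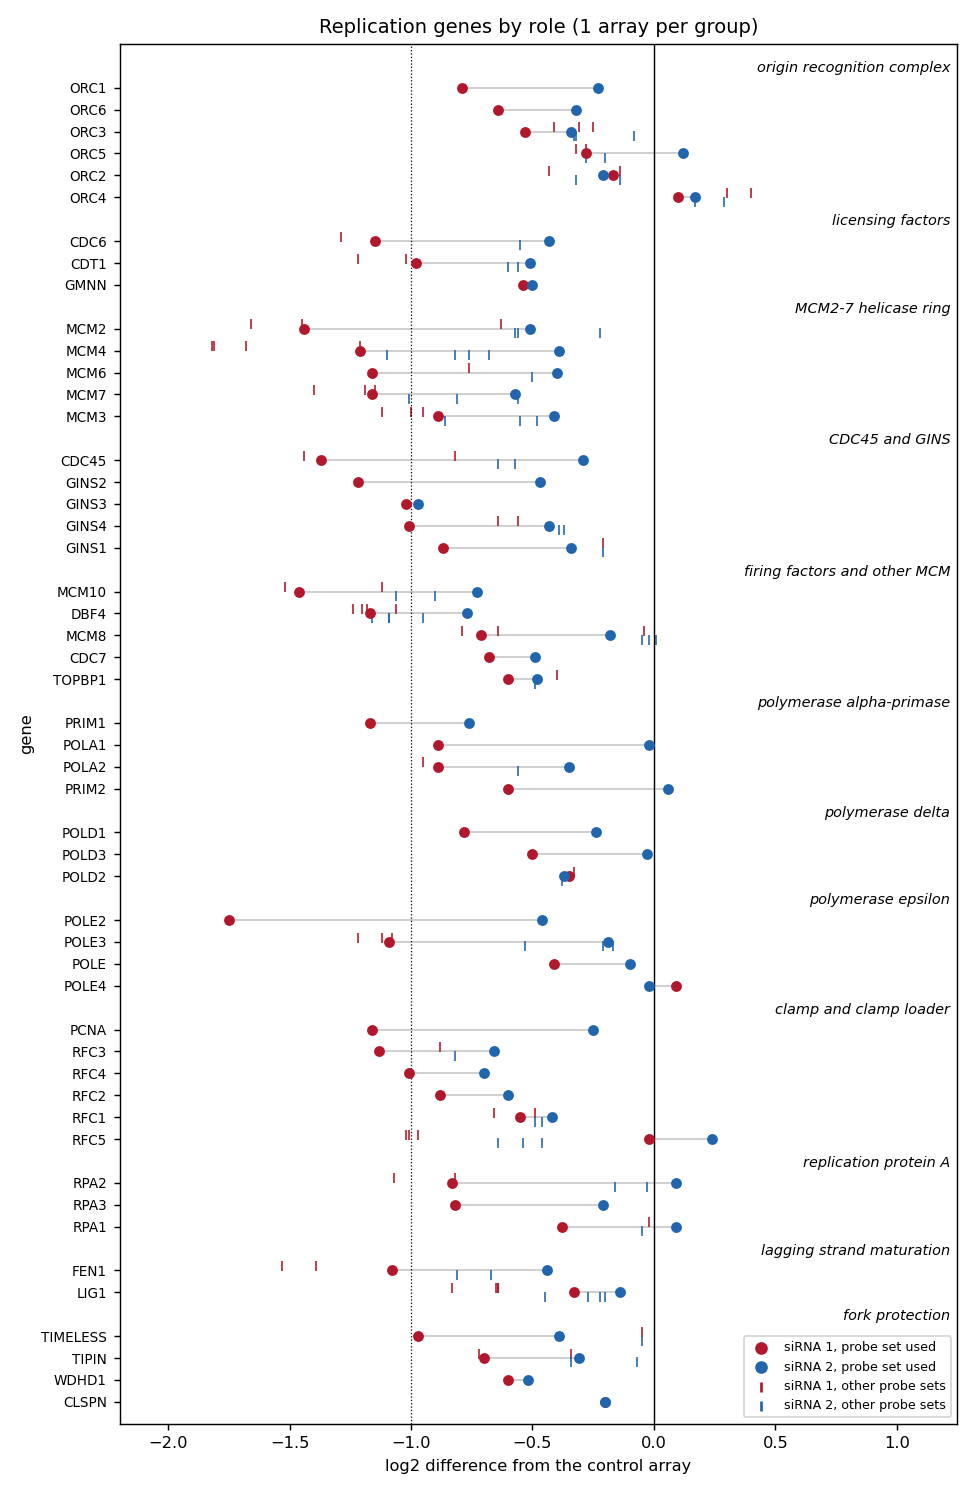
Log2 difference from the control array for each measured replication gene, grouped by role and ordered by the siRNA 1 value; red marks siRNA 1 and blue siRNA 2, points are the probe set that stands for the gene, ticks are its other measured probe sets (values below the floor raised to it), and the dotted line marks a 2-fold lower value. Most red points lie left of the blue ones, POLE2 reaches -1.75 with siRNA 1, and ORC4, POLE4 and RFC5 lie near or above 0; the CLSPN points, both -0.20, and the WDHD1 siRNA 1 point are bounds set by the floor.

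Origin recognition genes were the least different of the licensing machinery. Over the 6 subunits the median difference was -0.40 (siRNA 1) and -0.22 (siRNA 2), and 0 were at least 2-fold lower. ORC1, the subunit whose protein level follows the cell cycle, read 60.3 on the control array, 34.9 after siRNA 1 and 51.5 after siRNA 2 (-0.79 and -0.23). ORC6 read 282, 181 and 227 (-0.64 and -0.32). Both were highest in the control and lowest with siRNA 1. The remaining subunits, ORC2 to ORC5, form the stable core of the complex. ORC3 read 131, 90.7 and 104 (-0.53 and -0.34), and its 3 other probe sets gave -0.41 to -0.25 for siRNA 1. ORC2 read 228, 203 and 198 (-0.17 and -0.21), and ORC5 620.5, 513 and 674 (-0.28 and 0.12). For ORC5 the 2 other probe sets were lower with siRNA 2 as well, at -0.28 to -0.20. ORC4 stood alone in being higher in both libraries. It read 408, 438 and 458, differences of 0.10 and 0.17, and its 2 other probe sets gave 0.30 to 0.40 for siRNA 1 and by 0.17 to 0.29 with siRNA 2.

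The licensing factors that act after the origin recognition complex were lower with both siRNAs. CDC6, the ATPase that helps load the MCM ring, read 707 on the control array, 319 after siRNA 1 and 524 after siRNA 2, hence 2.22-fold and 1.35-fold lower, and the other CDC6 probe set gave -1.29 and -0.55. CDT1, the loading partner that is destroyed once S phase begins, read 132, 67.3 and 92.6. Its differences of -0.98 and -0.51 lay just outside the 2-fold threshold with siRNA 1, while its 2 other probe sets lay just past it (-1.22 to -1.02). Geminin, the CDT1 inhibitor encoded by GMNN, read 1488, 1025 and 1050.3. Unlike CDC6 it was about equally lower with both siRNAs, at -0.54 and -0.50.

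The MCM2-7 genes, which encode the ring of the replicative helicase, were lower throughout. All 5 measured genes were lower with both siRNAs, 4 of them at least 2-fold with siRNA 1, and the medians were -1.16 and -0.41. MCM2 read 341 on the control array, 126 after siRNA 1 and 239 after siRNA 2, hence 2.72-fold and 1.43-fold lower. MCM4 read 485, 209 and 369.8 (-1.21 and -0.39). MCM6 read 392, 176 and 297 (-1.16 and -0.40). In each of them the control was highest and siRNA 1 lowest. MCM7 read 2288, 1025 and 1544, and MCM3 454, 245 and 341, with differences of -1.16 and -0.57 for MCM7 and -0.89 and -0.41 for MCM3. The probe set chosen for MCM4 gave the smallest siRNA 2 difference of its 5, as the 4 others differed by -1.82 to -1.21 with siRNA 1 and by -1.10 to -0.68 with siRNA 2. The -1.21 belongs to a dim probe set (60 to 14.9) that was below the floor with siRNA 1, so it is a bound. For MCM2 the spread ran from -1.66 to -0.63 with siRNA 1, and for MCM6 the other probe set gave -0.76 and -0.50, nearer the control after siRNA 1 and farther from it after siRNA 2.

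**Figure D3:**
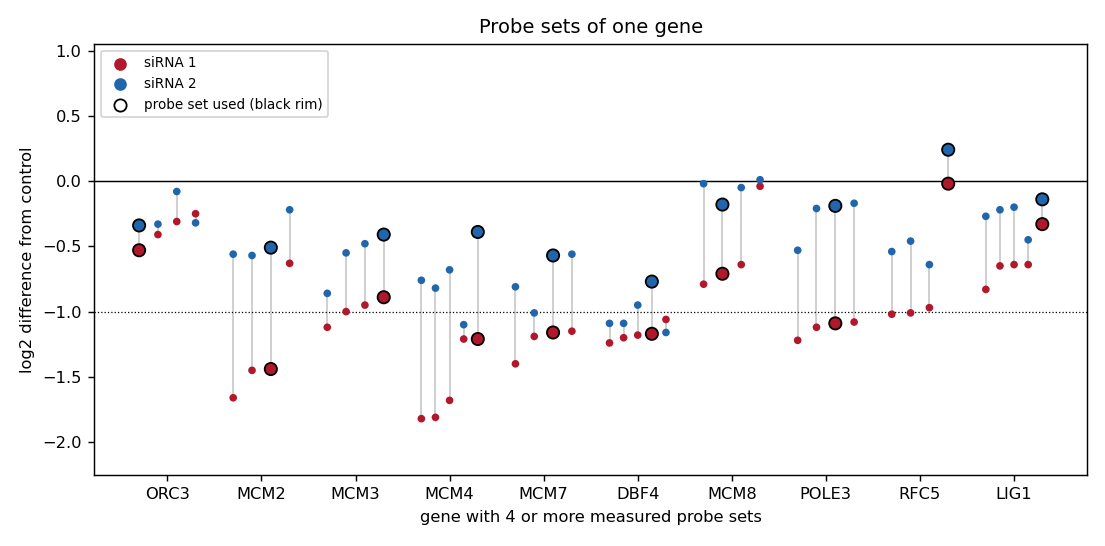
Log2 difference from the control for every measured probe set of the 10 replication genes with 4 or more, siRNA 1 in red and siRNA 2 in blue, each probe set's values joined by a grey line and values below the floor raised to it; large rimmed points are the probe set that stands for the gene. DBF4, MCM7 and POLE3 have closely grouped red points, MCM2 and MCM4 spread more widely, and the RFC5 probe set in use lies at -0.02 and 0.24 while its 3 others lie at -1.02 to -0.97 and -0.64 to -0.46.

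CDC45 and the GINS subunits, which bind the MCM ring to form the active helicase, had medians of -1.02 and -0.43. CDC45 read 75.7 on the control array, 29.4 after siRNA 1 and 61.7 after siRNA 2. In this probe set the siRNA 1 value, close to the floor, was 2.58-fold below the control and 2.1-fold below the siRNA 2 value. The siRNA 2 value was 1.23-fold below the control. A second CDC45 probe set, at 80.1, 29.5 and 54, gave -1.44 and -0.57, and -0.87 between the siRNAs. The third, at 45.9, 20.5 and 29.4, gave -0.82 and -0.64, where -0.82 is a bound set by the floor. GINS2 read 114, 48.9 and 82.6 (-1.22 and -0.47), and GINS4 read 248, 123 and 184 (-1.01 and -0.43), just past the 2-fold threshold, and its 2 other probe sets were below the floor with siRNA 1 and give bounds only (38.3 to 21.7 and 40.4 to 17.7). GINS1 read 1241, 680.2 and 982 (-0.87 and -0.34). GINS3 departed from the other subunits. It read 163, 80.3 and 83.3, so the siRNA libraries were alike, at -1.02 and -0.97, and its siRNA 2 difference was the most negative of the 50 genes by the probe sets in use.

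By the probe sets in use, the firing factors were all lower in both libraries. MCM10, which helps to activate the loaded helicase, read 477 on the control array, 174 after siRNA 1 and 288 after siRNA 2, hence 2.75-fold and 1.66-fold lower, and its 2 other probe sets differed by -1.52 to -1.12 and by -1.06 to -0.90, where -1.12 is a bound set by the floor. DBF4, the activating subunit of the CDC7 kinase, read 204, 90.8 and 119, or -1.17 and -0.77. Its 4 other probe sets gave -1.24 to -1.06 with siRNA 1 and -1.16 to -0.95 with siRNA 2, so 3 of its 5 measured probe sets were at least 2-fold lower with both siRNAs. The kinase gene CDC7 differed less, at 133, 82.6 and 94.8 (-0.68 and -0.49). TOPBP1, a scaffold for helicase activation and for checkpoint signalling, read 724, 479 and 519 (-0.60 and -0.48). MCM8 encodes an MCM relative that acts in recombination and is no part of the ring. It read 101, 61.8 and 88.7, lower with siRNA 1 (-0.71) and nearer the control with siRNA 2 (-0.18). Its 3 other probe sets gave -0.79 to -0.04 with siRNA 1, where -0.04 is a bound set by the floor. With siRNA 2 they were level with the control, at -0.05 to 0.01.

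**Figure D4:**
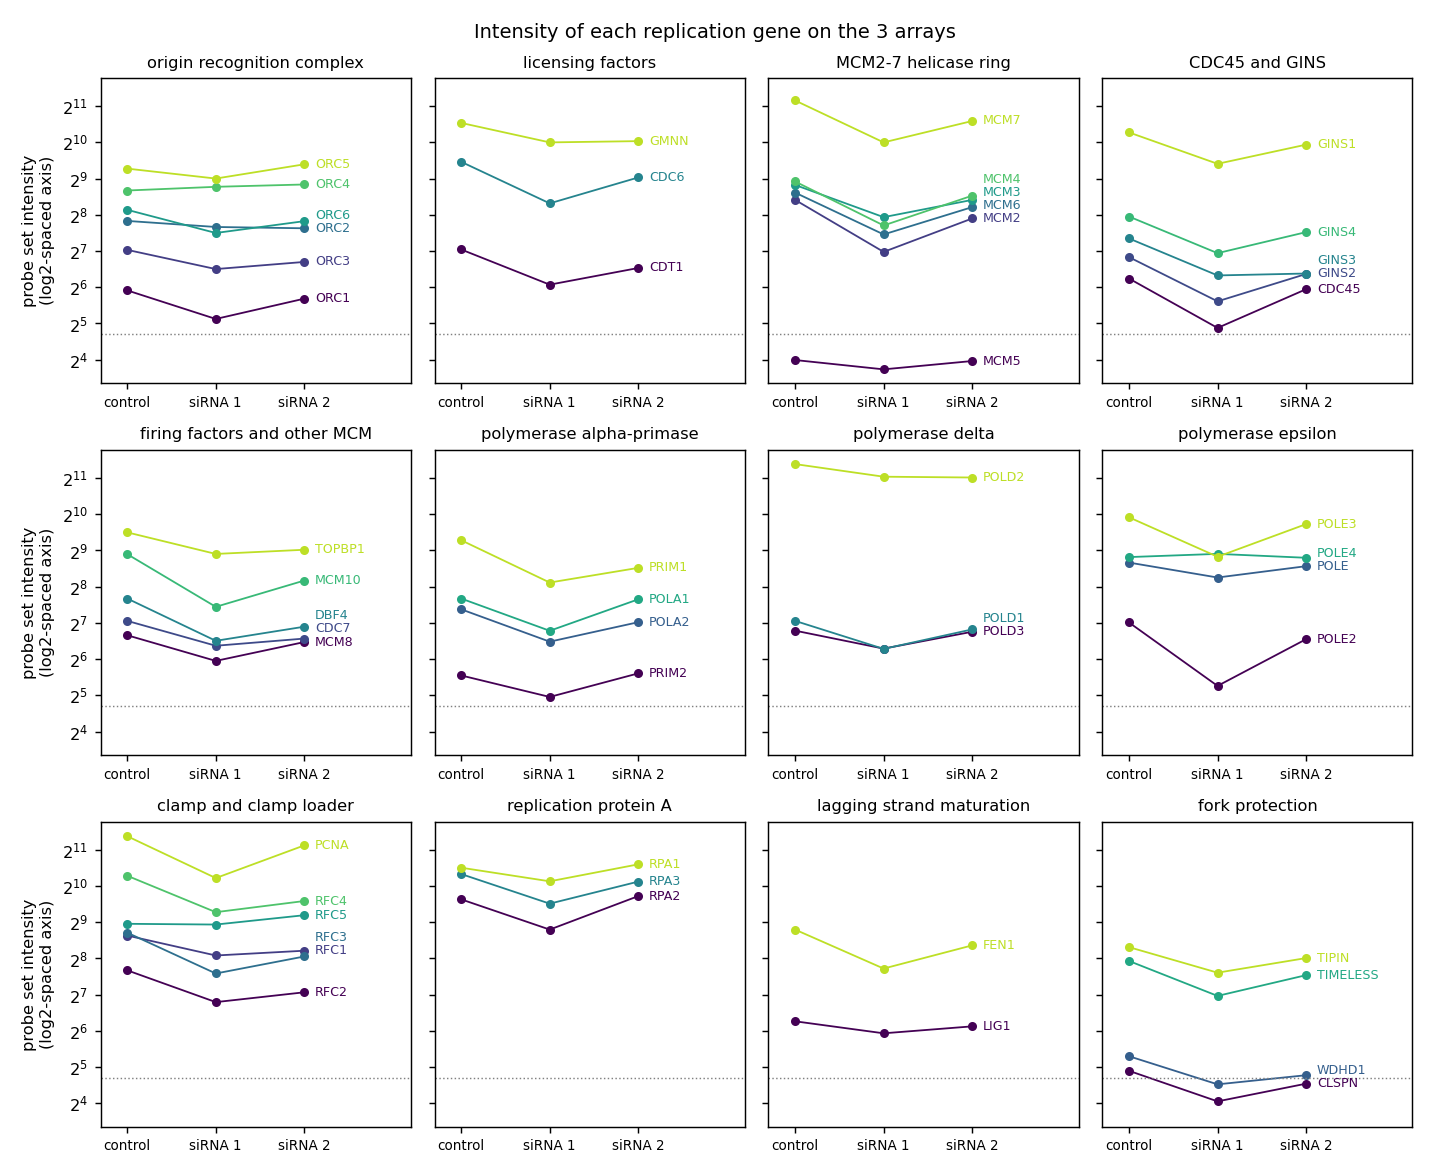
Probe set intensity (y axis, log2-spaced) of each of the 51 replication genes on the control, siRNA 1 and siRNA 2 arrays (x axis), 1 panel per role, each line a gene and the dotted line the floor at 26.0. A dip at siRNA 1 recurs in most lines, GINS3 and GMNN stay level from siRNA 1 to siRNA 2, POLA1 returns to its control value, and MCM5 lies below the floor on all arrays.

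Polymerase genes differed from subunit to subunit. In polymerase alpha-primase, which makes the RNA-DNA primers, all 4 genes were lower with siRNA 1 (median -0.89), while the siRNA 2 values ranged from -0.76 to 0.06. PRIM1, the catalytic primase subunit, read 623, 277 and 367, lower in both libraries (-1.17 and -0.76). POLA1, the catalytic polymerase subunit, read 204 on the control array, 110.0 after siRNA 1 and 201 after siRNA 2, so siRNA 2 was level with the control (-0.02) and siRNA 1 was 1.85-fold lower. PRIM2 followed the POLA1 pattern near the floor, at 46.8, 31 and 48.7, and the accessory subunit gene POLA2 lay between, at 166, 89.3 and 129.7 (-0.89 and -0.35).

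Among the polymerase epsilon genes POLE2 had the most negative siRNA 1 difference of the 50 genes. This accessory subunit gene read 129 on the control array, 38.3 after siRNA 1 and 93.7 after siRNA 2, hence 3.37-fold and 1.38-fold lower, and it was 2.44-fold lower with siRNA 1 than with siRNA 2. It had 1 probe set. The catalytic subunit gene POLE read 406, 305 and 379 (-0.41 and -0.10). POLE3 and POLE4 encode histone-fold proteins that form a dimer, and they did not go together. POLE3 read 966, 454 and 848 (-1.09 and -0.19, with 3 other probe sets at -1.22 to -1.08 with siRNA 1), whereas POLE4 read 451, 479.6 and 445 (0.09 and -0.02). In polymerase delta, which copies the lagging strand, 0 of 3 genes were at least 2-fold lower. The catalytic subunit gene POLD1 read 133, 77.8 and 113 (-0.78 and -0.24), POLD3 read 110.3, 78.2 and 108 (-0.50 and -0.03), and POLD2 read 2675, 2101 and 2069, about equally lower with both (-0.35 and -0.37).

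The sliding clamp and its loader were lower with siRNA 1 in all 6 genes. PCNA, the clamp that tethers polymerases to DNA, read 2659 on the control array, 1193 after siRNA 1 and 2232 after siRNA 2, hence 2.23-fold and 1.19-fold lower. The loader subunits RFC3 (419.6, 192 and 266) and RFC4 (1247, 621 and 769) passed the 2-fold threshold with siRNA 1, and with siRNA 2 they were 1.58-fold and 1.62-fold lower. For these loader subunits the siRNA 2 difference was thus a larger share of the siRNA 1 difference than for the clamp. RFC2 read 204, 111 and 134 (-0.88 and -0.60), and RFC1, the large subunit, 397, 271 and 297 (-0.55 and -0.42). RFC5 depended on the probe set. The brightest read 497, 490.0 and 586 (-0.02 and 0.24), and the next, at 405, 201 and 294, gave -1.01 and -0.46. The median over its 4 probe sets was -0.99 with siRNA 1 and -0.50 with siRNA 2.

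Replication protein A, the trimer that coats single-stranded DNA, was lower with siRNA 1 and near the control with siRNA 2. RPA2 read 794, 445 and 845 (-0.83 and 0.09), and its 2 other probe sets gave -1.07 to -0.82 with siRNA 1 and -0.16 to -0.03 with siRNA 2. RPA3 read 1289, 731 and 1115 (-0.82 and -0.21). RPA1, the large subunit, read 1455, 1121 and 1552 (-0.38 and 0.09). In the probe sets in use the siRNA 1 library was the lowest for all 3, and siRNA 2 was below the control for RPA3 only, while the dimmer probe sets of RPA2 and RPA1 (-0.05) were slightly below it too.

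In lagging strand maturation, FEN1, the nuclease that trims primer flaps, read 445, 211 and 329 (-1.08 and -0.44), with its 2 other probe sets lower still (-1.53 to -1.39 and -0.81 to -0.67). LIG1, the ligase that seals the fragments, read 76.9, 61.1 and 69.8 (-0.33 and -0.14), and its 4 other probe sets gave -0.83 to -0.64 for siRNA 1. Both genes were lowest with siRNA 1. Fork protection genes were all lower than the control. TIMELESS read 244, 125 and 186 (-0.97 and -0.39), just short of 2-fold with siRNA 1, and its dim other probe set, at 26.8, 16.1 and 20.6, was below the floor after both siRNAs and gives no size of difference. TIPIN, its partner, read 318, 195 and 258 (-0.70 and -0.31). WDHD1, which links the helicase to polymerase alpha, read 39.4, 23 and 27.4, at least 1.52-fold below the control after siRNA 1 and 1.44-fold below it after siRNA 2, and CLSPN, the checkpoint mediator claspin, read 29.8, 16.6 and 23.3, at least 1.15-fold lower with each. For WDHD1 and CLSPN the floor limits what can be said of the size of the differences.

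Across roles, several patterns recurred, picked out after their values were seen. POLA1, PRIM2 and RPA2 were lower by 0.5 or more with siRNA 1 and within 0.15 of the control with siRNA 2. In 6 genes, GMNN, GINS3, TOPBP1, POLD2, RFC1 and WDHD1, both siRNA differences were at or below -0.3 and within 0.15 of each other, although for WDHD1 the siRNA 1 value is a bound and without a floor it gave -0.78 against -0.52. A further 6, ORC2, ORC4, ORC5, POLE4, RFC5 and CLSPN, were within 0.3 of the control in both libraries by the probe sets in use. RFC5 differed by more in its other probe sets. Another probe set also lay outside 0.3 for ORC2 (-0.43 and -0.32), ORC4 (0.40 with siRNA 1) and ORC5 (-0.32 with siRNA 1). CLSPN was limited by the floor. The share of all measured genes in each pattern was not counted, so the patterns cannot be called particular to the replication genes. Over all measured genes the 25th to 75th percentiles were -0.20 to 0.24 with siRNA 1 and -0.19 to 0.21 with siRNA 2. Values within 0.3 of the control were thus common. With 1 array per group, and a spread of 0.25 and 0.17 between probe sets of a gene, membership of these patterns is a description of the 3 arrays.

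Promoter sequences of the listed genes were searched as a description of the list. The share of listed genes with a match does not depend on the array differences. RefSeq promoter windows of build GRCh38.p14, from 250 bases before to 50 after the gene start, matched 45 of the 51 genes by symbol, and the first window listed for each gene was used. The E2F motif was searched as TTTCCCGC, TTTGGCGC, TTTCGCGC or TTTGCCGC on either strand, where matches can overlap. It was found in 21 of the 45 windows (46.7%), against 3.33% of the windows of 27305 genes and 5.51% of those of measured genes. The CCAAT box, CCAAT on either strand, was found in 25 (55.6%, against 35.7% of all windows and 37.3% of those of measured genes), and the CHR letters TTTGAA or TTCGAA, an element of mitotic gene promoters, in 2 (4.44%, against 16.6% of all windows and 10.9% of those of measured genes). A match is a description of the letters and no evidence of a bound site.

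Within the replication genes, the median differences for siRNA 1 and siRNA 2 were -0.89 and -0.40 in the 21 with an E2F match, and -0.69 and -0.34 in the 24 without one. At least 2-fold lower with siRNA 1 were 9 and 7 of them. The ranges overlapped, from -1.75 to 0.09 with a match and from -1.46 to 0.10 without. The windows below show this mixture, 250 bases before to 30 after the start, 5' to 3' on the gene's strand, with the E2F letters on either strand in capitals. CDC6, MCM2, MCM6 and POLE2 hold a match and passed the 2-fold threshold, and POLE4 holds a match and was level with the control. MCM10 holds none of the searched E2F letters in this window and was 2.75-fold lower. Its window does hold TTTGGCGG, as does that of CDC6, which differs from TTTGGCGC in the last letter and was not searched. Genes counted as without a match lack only the letters searched. Overlapping matches on both strands form the 12-letter runs in MCM2 and MCM6, and MCM6 carries 2 such runs.
CDC6, chr17:40287629-40287908, plus strand: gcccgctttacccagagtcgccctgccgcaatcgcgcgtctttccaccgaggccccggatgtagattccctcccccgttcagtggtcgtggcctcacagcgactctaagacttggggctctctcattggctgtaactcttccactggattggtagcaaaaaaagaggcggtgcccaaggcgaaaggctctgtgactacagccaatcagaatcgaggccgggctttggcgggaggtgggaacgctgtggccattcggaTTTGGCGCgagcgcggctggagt
MCM2, chr3:127598161-127598440, plus strand: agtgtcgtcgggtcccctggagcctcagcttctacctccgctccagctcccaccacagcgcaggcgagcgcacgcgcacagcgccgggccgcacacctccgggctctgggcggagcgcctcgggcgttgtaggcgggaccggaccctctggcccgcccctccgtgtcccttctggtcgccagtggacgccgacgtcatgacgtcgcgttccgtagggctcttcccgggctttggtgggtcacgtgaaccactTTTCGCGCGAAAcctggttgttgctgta
MCM6, chr2:135876414-135876693, minus strand: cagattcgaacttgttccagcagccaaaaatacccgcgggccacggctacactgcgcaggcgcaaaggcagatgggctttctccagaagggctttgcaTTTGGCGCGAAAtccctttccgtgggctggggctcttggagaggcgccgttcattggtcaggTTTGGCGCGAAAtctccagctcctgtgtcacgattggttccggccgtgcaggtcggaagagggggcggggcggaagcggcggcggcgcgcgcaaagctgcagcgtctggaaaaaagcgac
POLE2, chr14:49688185-49688464, minus strand: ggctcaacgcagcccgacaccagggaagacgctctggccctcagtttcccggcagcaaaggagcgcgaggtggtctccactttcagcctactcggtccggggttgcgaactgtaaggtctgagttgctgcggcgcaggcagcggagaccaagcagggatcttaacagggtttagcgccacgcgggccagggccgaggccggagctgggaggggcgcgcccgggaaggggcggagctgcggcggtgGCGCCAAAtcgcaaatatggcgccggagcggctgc
POLE4, chr2:74958393-74958672, plus strand: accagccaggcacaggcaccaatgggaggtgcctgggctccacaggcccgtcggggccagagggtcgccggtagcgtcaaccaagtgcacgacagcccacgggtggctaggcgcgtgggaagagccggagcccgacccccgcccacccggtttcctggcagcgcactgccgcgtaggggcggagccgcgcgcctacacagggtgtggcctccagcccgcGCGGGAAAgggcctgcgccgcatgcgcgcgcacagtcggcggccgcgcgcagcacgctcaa
MCM10, chr10:13161308-13161587, plus strand: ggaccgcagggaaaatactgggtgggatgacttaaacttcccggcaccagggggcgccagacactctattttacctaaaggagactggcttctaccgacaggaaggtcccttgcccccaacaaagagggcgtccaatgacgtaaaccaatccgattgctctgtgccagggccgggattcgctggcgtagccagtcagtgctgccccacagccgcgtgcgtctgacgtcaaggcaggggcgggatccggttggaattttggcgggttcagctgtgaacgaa

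Other genes of the replication machinery were compared through a list of 40 genes that shares no member with the 51. All 40 were measured, and 31 were lower in both siRNA libraries (background 32.1%). The medians were -0.58 with siRNA 1 and -0.29 with siRNA 2, and 9 genes passed the 2-fold threshold after siRNA 1 (background 1.76%) and 0 after siRNA 2 (background 0.603%). Those 9 were ASF1B and CHAF1A, which load histones behind the fork, RNASEH2A, which removes RNA from DNA, DBF4B, a relative of DBF4, the ubiquitin ligase factors DTL and UHRF1, the topoisomerase gene TOP2A, the checkpoint kinase gene CHEK1 and the fork repair gene MMS22L. ASF1B read 197, 70.1 and 143 (-1.49 and -0.46), and its 2 other probe sets gave -0.89 to -0.81 for siRNA 1, the latter a bound set by the floor. RNASEH2A read 598, 217 and 361 (-1.47 and -0.73), and its other probe set gave -1.52 and -0.76. DBF4B differed by -1.45 and -0.67 in the probe set used, and the other was too near the floor to give a size. The other probe sets of DTL (-1.75) and TOP2A (-1.13 to -1.11) passed the 2-fold threshold with siRNA 1 as well. Those of CHAF1A (-0.99 to -0.97) and MMS22L (-0.35) did not, and those of CHEK1 gave -1.28 to -0.71. For UHRF1 no other probe set was measured. Only RAD17 (0.13 and 0.17) and TOP1 (0.74 and 0.05) were higher in both libraries. TOP1, the topoisomerase that relieves supercoils in transcription and replication, read 1296, 2159 and 1345, and its other probe set gave 0.68 and -0.07, so the siRNA 1 library stood above the control and siRNA 2 near it in both probe sets.

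**Figure D5:**
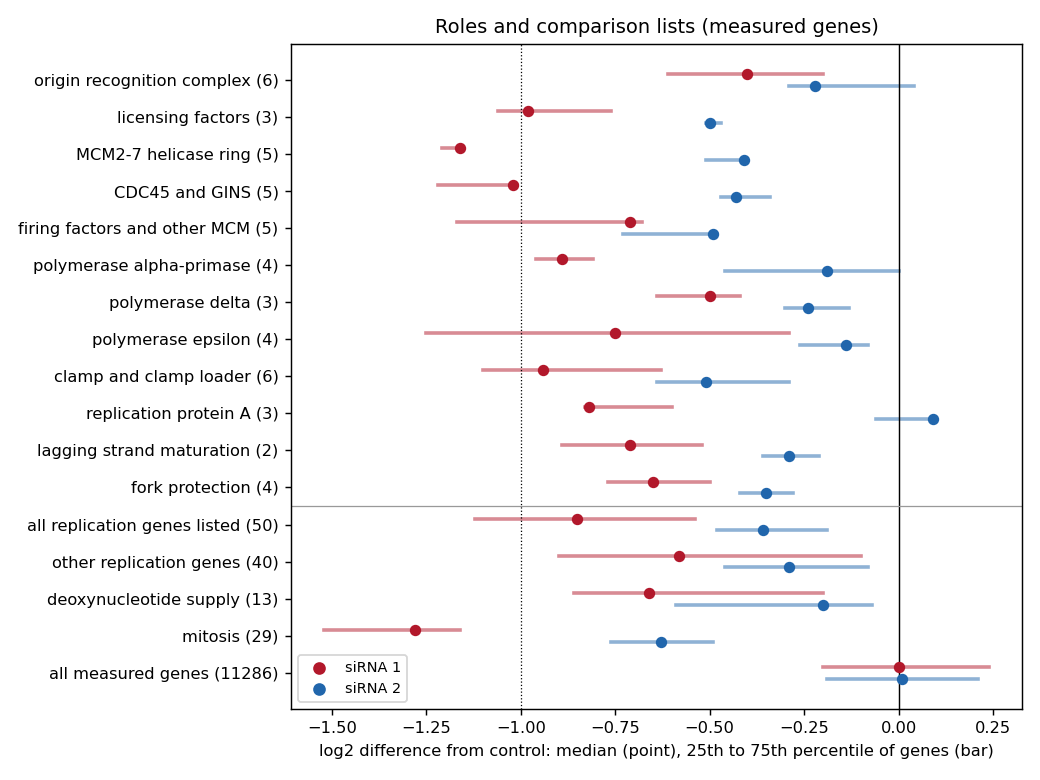
Median log2 difference from the control (points) with the 25th to 75th percentile of genes (bars), siRNA 1 in red and siRNA 2 in blue, for each role, for the 50 measured replication genes, for 3 comparison lists and for all measured genes; numbers in brackets are measured genes, and the dotted line marks a 2-fold lower value. The MCM2-7 ring has the lowest siRNA 1 median of the roles at -1.16, replication protein A has a siRNA 2 median of 0.09, and mitosis genes lie lower than the replication genes in both libraries.

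Beside related lists, the replication genes lay between. A list of 29 measured mitosis genes had medians of -1.28 and -0.63, and 13 measured genes of deoxynucleotide supply, the enzymes that make the building blocks of DNA, had medians of -0.66 and -0.20. With only plain probe sets, those without a suffix for shared transcripts or cross-hybridisation, 16 replication genes were measured, 15 were lower with both siRNAs (32.1% of the 3412 genes measured that way), and the siRNA 1 median was -0.52. Lower with siRNA 1 than with siRNA 2 were 10 of the 16, nearer to the 47.6% of those 3412 genes than the 46 of 50 above were to their background.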

How the data were processed

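Total RNA of 3 cultures was hybridised to Affymetrix arrays, 1 array per group, per the labels. The cell line label was LNCaP for each, while the source labels differed as given above. The deposited values are probe set intensities on a linear scale. The submitters' processing notes name GCOS 1.4. Background correction, summarisation and normalization are not given in the sources used here, and the intensity columns were used as deposited. Precision is limited by the number of arrays.

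Groups were taken from the title labels. Symbols were read from GEO's platform annotation, where 44988 of 49388 probe sets carried 1 symbol, 1831 several and 2569 none. Through the Entrez identifier 44961 matched RefSeq, with 0 symbols changed. A floor at the median of all values, log2 values, 1 probe set per gene (that of highest mean log2 intensity) and a 2-fold threshold were used, and counts and medians were set beside those of all 11286 measured genes. No test was made. Every listed gene could be named, and other replication genes where at least 2-fold different or higher with both siRNAs. The counting was tested on simulated data, in which bright genes were lowered well past the threshold with little noise. That check does not cover dim genes or values near the threshold. The genes and lists were chosen with earlier results of these data known. Alternatives were other floors, averaged or plain probe sets, rescaled arrays and other thresholds. Python 3.11.15, numpy 2.4.6, pandas 2.3.3 and matplotlib 3.10.9 were used.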

Additional observations from a re-analysis of the deposited data

How the results depend on the processing

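Alternatives gave 78 values for the counts and medians of the replication genes and the further replication list. Of these, 64 stayed within 1.5 times the reported value and 14 did not. Among the medians 0 changed sign, and counts cannot change sign. The 2-fold count with siRNA 2 was reported as 0, so a ratio to it has no meaning. Counts were compared as numbers of genes, although some alternatives measured fewer genes. Thus 15 of 16 genes lower with both siRNAs was among the 14, against 43 of 50 reported. The tally therefore does not compare shares of genes between settings. Thresholds moved the counts as they are built to. At 1.5-fold 36 replication genes were lower with siRNA 1 (background 6.16%) and 7 with siRNA 2 (background 4.67%). Of the other replication genes 20 were lower with siRNA 1 at 1.5-fold. At 3-fold the siRNA 1 counts were 1 replication gene and 0 of the other list (background 0.168%). Restricting to plain probe sets, those without a suffix, left 16 of the 50 genes and 14 of the other 40. There the 2-fold count with siRNA 1 was 3 (background 1.41%), and lower with both siRNAs were 15 (background 32.1%). Lower with siRNA 1 than siRNA 2 were 10 (background 47.6%). The siRNA 1 median was -0.52 and the median between siRNAs -0.26. For the other replication genes the 2-fold count with siRNA 1 was 4, and 12 were lower with both siRNAs. With the floor at the 75th percentile, which left 30 of those 40, their 2-fold count with siRNA 1 was 5 (background 1.54%). Averaging all probe sets of a gene counts those below the floor as no difference. It gave 12 replication genes at least 2-fold lower with siRNA 1 (background 1.12%) and medians of -0.61 and -0.28. Scaling on the hybridisation controls, chosen after seeing the data, shifted the median of all genes to -0.16 and -0.09. It shifted the replication medians to -1.03 and -0.47, and the 2-fold count with siRNA 2 to 1 (background 1.08%). Among single genes, 327 of 357 alternative values with siRNA 1 and 340 of 357 with siRNA 2 moved by less than the spread between probe sets. Leaving out an array was not possible with 1 per group. No paired analysis was possible because each group held 1 array. Signal over background limits MCM5, CLSPN, WDHD1 and PRIM2.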

Other observations

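POLD4, the small subunit of polymerase delta and a member of the list of other replication genes, was picked out once its values had been seen. It read 307 on the control array, 299.6 after siRNA 1 and 498 after siRNA 2, differences of -0.04 and 0.70. Its 2 other probe sets gave -0.01 to 0.00 and 0.61 to 0.62. It was thus level with the control with siRNA 1 and higher with siRNA 2, while POLD1, POLD2 and POLD3 were lower than the control by more with siRNA 1 or about equally with both.

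A further probe set annotated to TIPIN together with the ribosomal protein gene RPL9 and its copies read 5645 on the control array, 6753 after siRNA 1 and 5589 after siRNA 2 (0.26 and -0.01). It was left out because the signal cannot be assigned to 1 gene.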
